A study of Rattus norvegicus with 24 samples.

Results

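D-serine at the highest dose of the series was compared with vehicle in the forebrain of male rats of the inbred strain F344. The comparison takes 7 of the 24 arrays. The 500 mg/kg group is the 3 arrays whose labels give that dose, except the array of Animal 251, and the vehicle group is the 4 control arrays at 0 mg/kg. Each array held biotin-labelled RNA of 1 rat, aged 11 to 12 weeks, dosed once and killed 96 h later, and about 30 mg of forebrain was taken per rat. The labels name no altered gene and no agent other than D-serine, and the route of dosing was not given in the sources used here. Groups of 4 rats at 5, 20, 50 and 200 mg/kg make up the rest of the series and entered the same fit. All levels are log2(intensity + 16) after quantile normalization of 23 arrays. All differences are 500 mg/kg minus vehicle on that log2 scale, with the standard error (SE) of the fit (n = 3 against 4).

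D-serine is an amino acid that serves as a co-agonist of the NMDA receptor, the glutamate-gated calcium channel that opens only when its glycine site on the GluN1 subunit is also occupied. In the forebrain it is made from L-serine by serine racemase (Srr), moved across membranes by neutral amino acid transporters such as Asc-1 (Slc7a10), and broken down by D-amino acid oxidase (Dao), an enzyme known mainly from hindbrain glia and the kidney. L-serine itself comes largely from astrocytes, through the pathway that begins with Phgdh. Calcium entry through NMDA receptors switches on immediate-early genes such as Fos and Arc within minutes to hours.

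The array of Animal 251 was labelled as forebrain of a 500 mg/kg rat and carried cerebellar genes far above the arrays compared here. With all 24 arrays normalized together, the cerebellar granule cell GABA receptor subunit Gabra6 was at 10.73 on that array, against 4.57 to 5.25 on the other 500 mg/kg arrays and 4.40 to 5.57 on the vehicle arrays. The Purkinje cell gene Pcp2 was at 12.34, against 6.18 to 6.44 at 500 mg/kg and 6.09 to 6.50 in vehicle. Nrgn, the forebrain neuron protein neurogranin, was at 6.41, against 11.08 to 11.49 at 500 mg/kg and 11.03 to 11.70 in vehicle. The 3 arrays kept carried forebrain genes at the level of the vehicle arrays, with Camk2a, the kinase of excitatory forebrain synapses, at 11.87 to 11.90 against 11.71 to 12.05 in vehicle. On the array of Animal 251 Camk2a differed from the vehicle mean by -4.04. Other forebrain genes were nearer vehicle on that array, with -0.69 for Neurod6, -0.82 for Slc17a7, -0.81 for Ppp1r1b and -0.06 for Tbr1. These values were known when the array was left out and are given as a description.

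Quality measures overlapped between the groups. The deposited median intensities were 56.7 to 61.4 at 500 mg/kg and 56 to 82.9 in vehicle. After normalization, pairs of arrays correlated at 0.974 to 0.982 within 500 mg/kg, at 0.960 to 0.971 within vehicle and at 0.961 to 0.976 between the groups, while Animal 251 correlated with these arrays at 0.855 to 0.885. RNA integrity was read from control probe sets as the 3' signal over the 5' signal in log2 units, which grows as RNA degrades. This ratio was 2.38 ± 0.18 at 500 mg/kg and 2.50 ± 0.18 in vehicle for beta-actin (SD, n = 3 and 4, exact two-sided permutation p = 0.486, adjusted p = 0.729 over 3 ratios). It was 0.72 ± 0.07 at 500 mg/kg and 0.77 ± 0.07 in vehicle for Gapdh (exact permutation p = 0.343), and 1.71 ± 0.26 at 500 mg/kg and 1.76 ± 0.28 in vehicle for hexokinase (exact permutation p = 0.857). With 35 ways to divide 7 arrays, the smallest p this test can give is 0.0286.

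Of 18625 probe sets, 1 differed between 500 mg/kg and vehicle in limma after Benjamini-Hochberg adjustment, which is 0.00537% of those tested. It read Sptbn1, which encodes the beta-II spectrin of the membrane skeleton that lines axons and dendrites. Its levels were 9.13, 9.09 and 9.12 on the 500 mg/kg arrays, against 9.74, 9.79, 9.44 and 9.58 on the vehicle arrays. The groups did not overlap, and the 3 treated arrays lay within a far narrower band (SD 0.02) than the vehicle arrays (SD 0.16). Sptbn1 fell by 0.52 ± 0.08 (95% interval -0.69 to -0.35, 0.696-fold, limma adjusted p = 0.0329). The call was lost in 11 of the 19 alternative analyses that held this probe set. Leaving out a single array gave differences of -0.59 to -0.48, and the call was kept without vehicle replicate 3 (limma adjusted p = 0.00523) but lost without any other array, with adjusted p up to 0.413. Another Sptbn1 probe set was at 7.30, 7.33 and 7.14 at 500 mg/kg, against 7.57, 7.69, 7.41 and 7.60 in vehicle (-0.31 ± 0.12, limma adjusted p = 0.75). The brightest one, at 11.90 to 11.91 at 500 mg/kg and 11.84 to 11.88 in vehicle, differed by 0.04 ± 0.05. The 3 probe sets of Sptbn1 therefore did not give the same difference, and the gene, taken at its brightest probe set, did not pass.

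The Sptbn1 probe set that passed was below vehicle at every dose. Over 5, 20, 50, 200 and 500 mg/kg its mean differences from vehicle were -0.27, -0.44, -0.34, -0.42 and -0.52. All of these share the 4 vehicle arrays. Set directly against 200 mg/kg, whose arrays read 9.14 to 9.28, the 500 mg/kg arrays differed by -0.11 ± 0.08 (limma adjusted p = 1). Over all probe sets, 0 of 18625 passed between 500 and 200 mg/kg in limma, with 509 at an unadjusted p under 0.05.

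**Figure D1:**
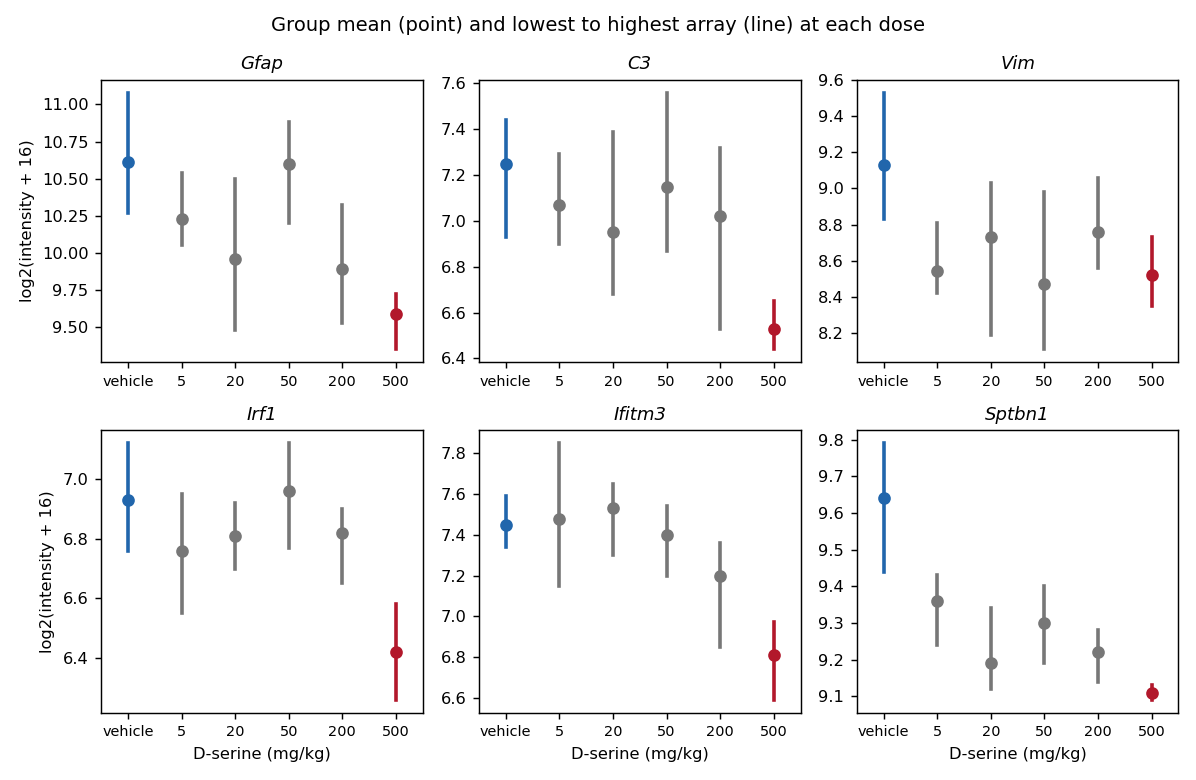
Levels of 6 genes by dose, as log2(intensity + 16), with vehicle at the left and the D-serine dose in mg/kg along the axis. Points are group means and lines run from the lowest to the highest array (3 arrays at 500 mg/kg, 4 elsewhere). Sptbn1 is drawn at the probe set that passed, which is not its brightest. That probe set lay below vehicle at every dose, whereas Irf1 and Ifitm3 lay near vehicle at 5 to 50 mg/kg.

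Promoters are shown for Sptbn1, the gene whose probe set passed, and for Gfap, Irf1 and Ifitm3, which are described next. Each runs from 250 bases before to 50 bases after an annotated start in RefSeq's GRCr8 assembly of the rat genome, which was matched by symbol for 13 of 16 genes, namely Sptbn1 and the 15 with the smallest p. Where a symbol had several starts, the first by genome coordinate was used. Capitals mark matches to the motifs searched, on both strands, and lower case alone means that none of these letters were found in the window. The Sptbn1 window is chr14:108217787-108218086 (minus strand), Gfap is chr10:88361612-88361911 (minus strand), Irf1 is chr10:38417685-38417984 (plus strand) and Ifitm3 is chr1:205541709-205542008 (minus strand).
Sptbn1: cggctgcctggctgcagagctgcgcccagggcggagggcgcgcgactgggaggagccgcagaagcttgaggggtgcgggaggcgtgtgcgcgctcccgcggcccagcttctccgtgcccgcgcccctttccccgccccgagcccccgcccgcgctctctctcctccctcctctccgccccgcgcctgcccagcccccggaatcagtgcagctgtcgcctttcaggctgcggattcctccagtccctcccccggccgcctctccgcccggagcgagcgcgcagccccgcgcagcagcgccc
Gfap: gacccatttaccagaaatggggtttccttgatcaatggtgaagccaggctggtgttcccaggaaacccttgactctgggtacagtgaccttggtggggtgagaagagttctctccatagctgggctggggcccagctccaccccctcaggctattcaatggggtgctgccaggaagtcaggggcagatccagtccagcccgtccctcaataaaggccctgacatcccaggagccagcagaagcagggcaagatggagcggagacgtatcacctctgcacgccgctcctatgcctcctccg
Irf1: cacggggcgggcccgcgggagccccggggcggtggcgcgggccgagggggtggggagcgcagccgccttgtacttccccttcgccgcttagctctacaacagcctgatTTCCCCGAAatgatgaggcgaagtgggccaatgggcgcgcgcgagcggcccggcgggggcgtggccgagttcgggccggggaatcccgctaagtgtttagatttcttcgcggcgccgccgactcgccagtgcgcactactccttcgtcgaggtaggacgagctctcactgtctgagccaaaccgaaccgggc
Ifitm3: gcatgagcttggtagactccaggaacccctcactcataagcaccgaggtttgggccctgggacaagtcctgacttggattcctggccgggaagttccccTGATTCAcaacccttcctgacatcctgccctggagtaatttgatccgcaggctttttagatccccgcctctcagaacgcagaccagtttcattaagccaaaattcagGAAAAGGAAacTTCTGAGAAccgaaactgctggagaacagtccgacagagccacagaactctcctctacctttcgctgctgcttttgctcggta

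The Irf1 window held a STAT site (TTCNNNGAA), the kind bound by factors of cytokine signalling, at bases -142 to -134 from the start. The Ifitm3 window held a STAT site at -33 to -25, the core of an interferon response element (GAAANNGAA) at -44 to -36 and an AP-1 site (TGANTCA) at -151 to -145, and these did not overlap. Such letters are common. A STAT site occurs in 8.87%, the interferon core in 9.71% and an AP-1 site in 7.33% of 33469 promoters of this length. The STAT and interferon motifs were added after the sequences of the named genes had been seen. Also searched were the CRE of activity-regulated genes (TGACGTCA), found in 0 of the 13 promoters and in 1.83% of all, and the glucocorticoid response element, found in 0 of the 13 and in 0.439% of all. The E-box of clock factors (CACGTG) was in 3 of the 13 and in 6.42% of all, and the antioxidant response element (TGACNNNGC) was in 2 of the 13 and in 12.1% of all. A match is a stretch of letters and not evidence of binding.

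Without adjustment, the number of differences was near that given by chance. Of 18625 probe sets, 1132 had an unadjusted p under 0.05, where chance gives about 931, with 553 higher and 579 lower at 500 mg/kg. Taken at 1 probe set each, 280 of 10207 genes were higher (2.74%) and 307 lower (3.01%) at that p, and 0 passed after adjustment, the smallest limma adjusted p being 0.158. The 3 treated arrays all lay above the 4 vehicle arrays for 302 genes (2.96%) and all below them for 328 (3.21%). The median difference of all genes was 0.01. At its brightest probe set no gene lay more than 1 log2 unit above vehicle, and 5 lay more than 1 below it. A dimmer Plpp3 probe set differed by 1.30 ± 0.27 (limma adjusted p = 0.263). Against the same vehicle arrays it differed by 1.11, 1.33, 1.67 and 1.15 at 5, 20, 50 and 200 mg/kg. A dimmer Zrsr2-ps1 probe set differed by -0.83 ± 0.16 (limma adjusted p = 0.158). The median SE of a difference was 0.14, so the number of arrays limits which changes could be seen.

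The 15 genes with the smallest p are given as values, since none of them passed. In 11 of them 500 mg/kg lay below vehicle and in 4 above it, and by their choice the groups of each are far apart. Several were dim, near the lowest mean over 23 arrays that the filter kept, 5.99. Sox17, Elk3, Prlh, Grem1, Olfml2a and Irf1 were left out when the filter took 60% of probe sets. The smallest p belonged to Arhgap5, which encodes a GTPase-activating protein. It was at 8.43, 8.30 and 8.38 at 500 mg/kg, against 8.91, 8.88, 8.67 and 8.78 in vehicle (-0.44 ± 0.08, limma adjusted p = 0.158). Against the same 4 vehicle arrays, the lower doses of 5, 20, 50 and 200 mg/kg gave differences of -0.44, -0.74, -0.46 and -0.29.

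**Figure D2:**
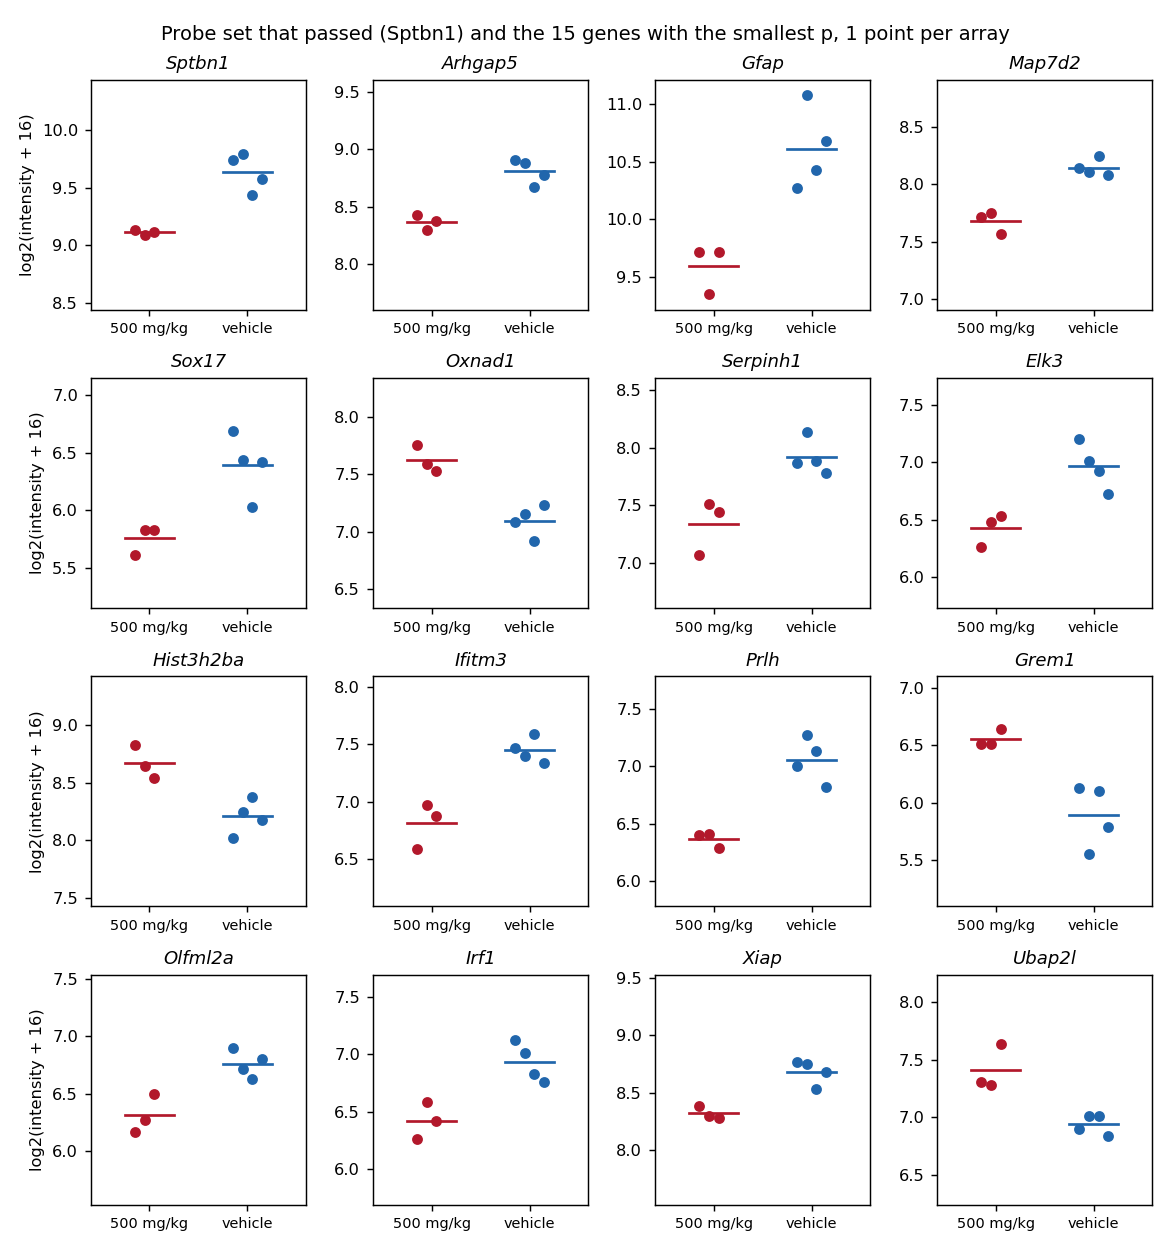
Levels on each array, as log2(intensity + 16), of the Sptbn1 probe set that passed and of the 15 genes with the smallest p. Points are arrays, 3 at 500 mg/kg (left, red) and 4 of vehicle (right, blue), lines are group means, and every panel spans 2 log2 units. In each panel the groups do not overlap.

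Gfap, the intermediate filament of astrocytes and the usual marker of their reactive state, had the largest difference of these genes. Its levels were 9.72, 9.35 and 9.72 at 500 mg/kg, against 10.27, 11.08, 10.43 and 10.68 in vehicle. Every treated array was below every vehicle array. The difference was -1.02 ± 0.22 (95% interval -1.47 to -0.57, 0.493-fold, limma adjusted p = 0.316). It had no even course over dose. At 50 mg/kg Gfap was at 10.20 to 10.88, close to vehicle (-0.02). At 5 mg/kg (-0.38), 20 mg/kg (-0.66) and 200 mg/kg (-0.73, 9.53 to 10.32) it was lower. The 500 and 200 mg/kg groups differed by -0.29 ± 0.22 (limma adjusted p = 1).

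Other members of the reactive astrocyte list lay the same way. Of 12 genes on the list, 5 were measured above the filter on dim probe sets, and 0 of these passed. In all 5 the treated arrays lay below every vehicle array, as in 3.21% of all genes, with a median of -0.61 against 0.01 for all genes. C3, the complement component that reactive astrocytes and microglia make, was at 6.44, 6.50 and 6.65 at 500 mg/kg, against 7.36, 7.44, 6.93 and 7.26 in vehicle (-0.72 ± 0.19, limma adjusted p = 0.427). Vim, the intermediate filament vimentin, also made by blood vessels and meninges, was at 8.35, 8.47 and 8.73 at 500 mg/kg, against 9.53, 9.13, 9.02 and 8.83 in vehicle (-0.61 ± 0.20, limma adjusted p = 0.645). The small heat shock protein Hspb1 (-0.40 ± 0.19) and ceruloplasmin, Cp (-0.24 ± 0.21), completed the list and differed less, Cp being named here after its value was seen. The list had a median of -0.72 to -0.48 when single arrays were left out. It was below vehicle at the lower doses too. Against the same 4 vehicle arrays, its median was -0.38, -0.40, -0.33 and -0.33 at 5, 20, 50 and 200 mg/kg. Vim differed by -0.59, -0.40, -0.66 and -0.37 at these doses. The list was chosen with results of these data known and is no separate support for Gfap.

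The list of genes that mark astrocytes in general also holds Gfap. It had 11 measured genes, 6 above and 5 below vehicle, with a median of 0.02 and 0 that passed. Aqp4, the water channel of astrocyte endfeet, was at 10.38, 10.55 and 10.77 at 500 mg/kg, against 11.00, 11.23, 10.77 and 10.96 in vehicle (-0.42 ± 0.18, limma adjusted p = 0.774). Another Aqp4 probe set was at 7.43, 7.77 and 7.60 at 500 mg/kg, against 8.44, 8.65, 8.20 and 8.51 in vehicle, with groups that did not overlap (-0.85 ± 0.23, limma adjusted p = 0.438), and a further one differed by -0.12 ± 0.11. Glul, glutamine synthetase, differed by 0.18 ± 0.12. In whole tissue, fewer cells of a type and less RNA per cell cannot be told apart. Microglia had 10 measured genes with a median of 0.01, of which 5 were above and 5 below vehicle, and C1qb, a chain of complement C1q, differed by 0.26 ± 0.15.

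The list of interferon genes had a median below vehicle. Of 18 listed, 9 were measured, 3 above and 6 below vehicle, with a median of -0.25 and 0 that passed, and in 1 the treated arrays lay below every vehicle array, as in 3.21% of all genes. The median was -0.30 to -0.17 with single arrays left out. The gene without overlap was Irf1, a transcription factor induced by interferon, at 6.26, 6.58 and 6.42 at 500 mg/kg, against 7.12, 7.01, 6.83 and 6.76 in vehicle (-0.50 ± 0.12, limma adjusted p = 0.427). At the lower doses Irf1 was near vehicle (-0.17, -0.12, 0.03 and -0.11 at 5, 20, 50 and 200 mg/kg). The 500 mg/kg arrays were also all below the 4 arrays of 200 mg/kg, which read 6.65 to 6.90 (-0.39, limma adjusted p = 1). Isg15, the ubiquitin-like protein induced by interferon, was at 5.91, 6.32 and 5.46 at 500 mg/kg, against 6.55, 6.79, 7.42 and 6.08 in vehicle (-0.82 ± 0.27, limma adjusted p = 0.654), and there the groups overlapped. Its mean at 500 mg/kg, 5.89, was under the lowest mean over 23 arrays that the filter kept, 5.99.

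Ifitm3, an interferon-induced membrane protein that blocks entry of viruses, was not on that list and belonged to the 15 genes with the smallest p. It was at 6.59, 6.97 and 6.88 at 500 mg/kg, against 7.47, 7.40, 7.59 and 7.34 in vehicle (-0.63 ± 0.15, limma adjusted p = 0.427). The lower doses of 5, 20, 50 and 200 mg/kg differed from vehicle by 0.04, 0.08, -0.04 and -0.25. The 500 mg/kg arrays overlapped those of 200 mg/kg, which read 6.85 to 7.36 (-0.38, limma adjusted p = 1). The antiviral GTPase genes Mx1 and Mx2 were measured as well, and each differed by 0.05.

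Sox17, Elk3 and Serpinh1 were also among the 15 genes with the smallest p and belonged to no list. Sox17, a transcription factor of arterial endothelium, was at 5.61, 5.83 and 5.83 at 500 mg/kg, against 6.69, 6.44, 6.03 and 6.42 in vehicle (-0.64 ± 0.14, limma adjusted p = 0.358). Elk3, an ETS factor known from endothelium, was at 6.26 to 6.53 at 500 mg/kg and at 6.72 to 7.20 in vehicle (-0.54 ± 0.13), and its other probe set differed by -0.21. Serpinh1, the chaperone of collagen folding, was at 7.07 to 7.51 at 500 mg/kg and at 7.78 to 8.14 in vehicle (-0.58 ± 0.14). Each of these had groups that did not overlap.

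The brain endothelium list held 11 measured genes, 2 above and 9 below vehicle, with a median of -0.25 and 0 that passed, and in 3 the treated arrays lay below every vehicle array, as in 3.21% of all genes. Its median was -0.32 to -0.16 with single arrays left out, nearest 0 without vehicle replicate 1, which had the list's highest level. Slco1a4, an organic anion carrier of the blood-brain barrier, was at 9.2, 9.05 and 9.22 at 500 mg/kg, against 10.03, 9.61, 9.50 and 9.50 in vehicle (-0.50 ± 0.14, limma adjusted p = 0.483). Its other probe set differed by -0.37. Esam, a junction protein of endothelium, was at 6.98 to 7.38 at 500 mg/kg and at 7.47 to 7.64 in vehicle (-0.42 ± 0.14). Slc7a5, the large neutral amino acid transporter at the same barrier, lay the other way, at 7.11, 7.34 and 7.32 at 500 mg/kg against 6.62, 6.74, 7.05 and 7.07 in vehicle (0.39 ± 0.15, limma adjusted p = 0.75). The list's level relative to the vehicle mean was -0.25 to -0.17 on the treated arrays and -0.13 to 0.26 on the vehicle arrays.

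Meningeal and collagen genes were all below vehicle, 11 of 11 measured, with a median of -0.37 and 0 that passed, although no gene had groups that did not overlap. That median was -0.55 without 500 mg/kg replicate 3 and -0.22 without vehicle replicate 1. Col3a1, a fibrillar collagen of connective tissue, was at 6.71, 6.40 and 7.42 at 500 mg/kg, against 8.39, 7.66, 7.63 and 7.16 in vehicle (-0.87 ± 0.27, limma adjusted p = 0.638). The list's level was -0.58 to -0.06 on the treated arrays and -0.53 to 0.36 on the vehicle arrays, so the groups overlapped. Pericyte and smooth muscle genes had a median of -0.08 over 9 genes, of which Rgs5, a pericyte marker, differed by -0.34 ± 0.13 and Acta2, smooth muscle actin, by -0.35 ± 0.16.

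Of 7 red blood cell genes 2 were measured, and in both the treated arrays lay below every vehicle array, as in 3.21% of all genes. The beta-globin gene Hbb was at 10.56, 11.19 and 10.45 at 500 mg/kg, against 11.97, 11.76, 11.80 and 11.42 in vehicle (-1.01 ± 0.43, limma adjusted p = 0.774). Alas2, the first enzyme of heme synthesis in red cells, was at 5.94, 5.75 and 6.17 at 500 mg/kg, against 6.80, 6.92, 6.82 and 6.47 in vehicle (-0.80 ± 0.37, limma adjusted p = 0.804). Neither passed. At 200 mg/kg the arrays spread from 9.61 to 12.34 for Hbb. Against the same vehicle arrays, Hbb differed by -0.37, -0.24, -0.12 and -1.30 at 5, 20, 50 and 200 mg/kg. Alas2 differed by -0.50, -0.29, -0.21 and -1.07 at these doses. The amount of blood left in the tissue was not measured otherwise, and its part in the lower vessel and astrocyte values was not tested.

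**Figure D3:**
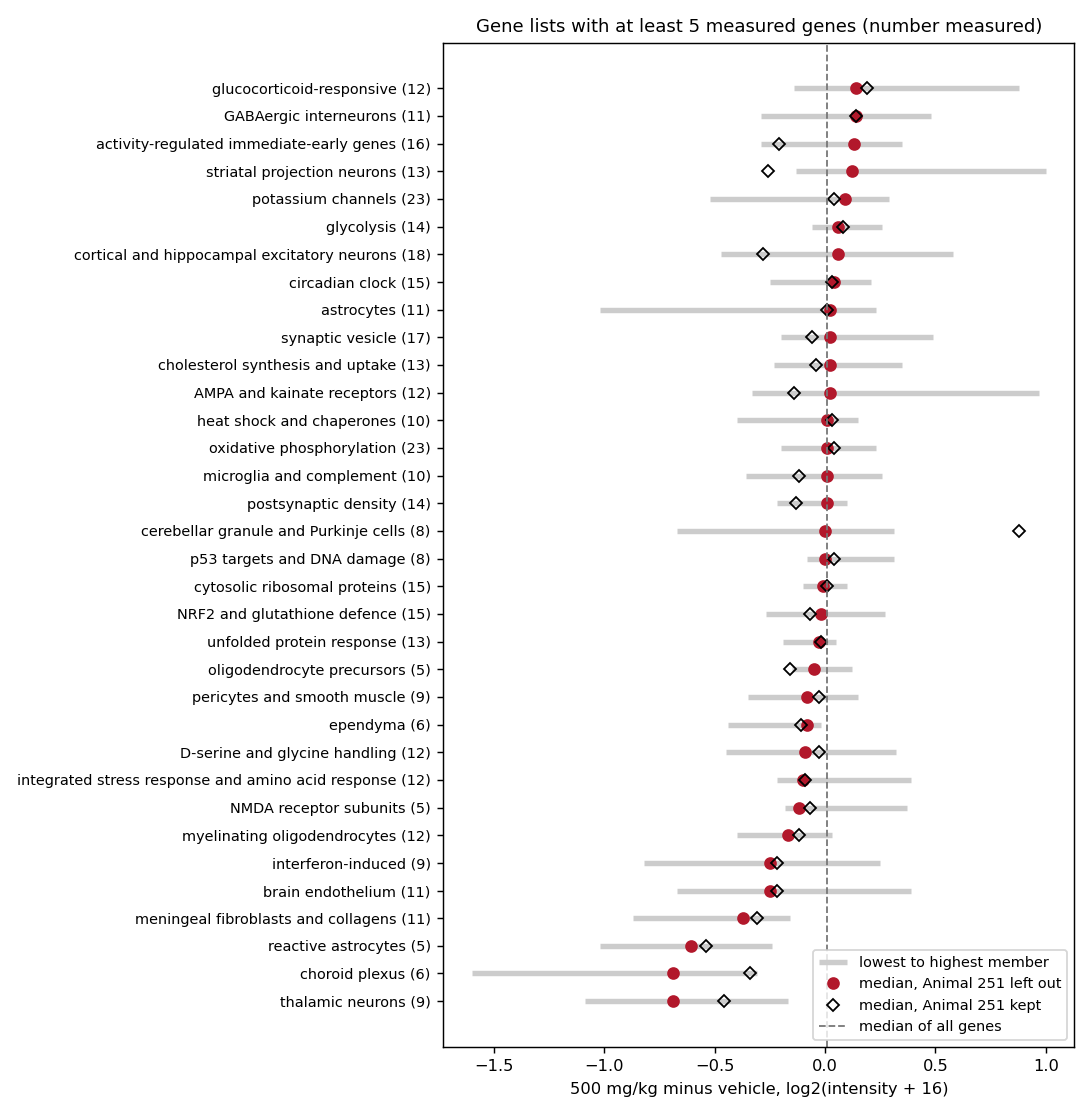
Median log2 difference, 500 mg/kg minus vehicle, of the 34 gene lists with at least 5 measured genes. Filled points leave Animal 251 out, open diamonds keep it, grey bars run from the lowest to the highest gene without Animal 251, and the dashed line is the median of all genes. Thalamic, choroid plexus and reactive astrocyte genes lay farthest below, and the cerebellar list was at 0.88 with Animal 251 kept and at 0.00 without it.

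The medians of the thalamic and choroid plexus lists were far closer to 0 without 1 vehicle array. In 1 member of each the treated arrays lay below every vehicle array, as in 3.21% of all genes, with that array or without it. That member was the one with the smallest p in its list. Thalamic genes were below vehicle in 9 of 9 (median -0.69), yet the list's level was -0.75 to -0.53 on the treated arrays, against 1.38 on vehicle replicate 2 and -0.60 to -0.35 on the other vehicle arrays. Slc17a6, the vesicular glutamate transporter of thalamic neurons, was at 7.09, 6.53 and 7.45 at 500 mg/kg, against 7.38, 10.33, 7.45 and 7.30 in vehicle (-1.09 ± 0.62). Without vehicle replicate 2 the thalamic median was -0.19. Lef1, the member of that list with the smallest p and a transcription factor of Wnt signalling, was at 7.02, 7.23 and 7.05 at 500 mg/kg, against 7.95, 8.65, 7.36 and 7.40 in vehicle (-0.74 ± 0.25, limma adjusted p = 0.654). Its treated arrays lay below all vehicle arrays, replicate 2 or not. Ttr, the transthyretin made in bulk by the choroid plexus, was at 6.86, 7.10 and 6.78 at 500 mg/kg, against 6.71, 13.09, 6.43 and 7.84 in vehicle (-1.60 ± 1.61), and without that array the choroid plexus median was -0.18 in place of -0.69. Prlr, the prolactin receptor and the member of that list with the smallest p, was at 6.22, 6.31 and 6.26 at 500 mg/kg, against 6.55, 7.07, 6.77 and 7.16 in vehicle (-0.62 ± 0.16, limma adjusted p = 0.427), and its groups did not overlap with or without that array. Reactive astrocyte genes kept their median of -0.61 without it.

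Striatal genes also followed single arrays. The list's level was -0.34, 0.62 and 0.38 on the treated arrays, against -0.27, -0.35, -0.31 and 0.93 on the vehicle arrays. Its median was 0.12 over 13 genes, 0 of which passed, and it was 0.49 without vehicle replicate 4 and -0.06 without 500 mg/kg replicate 2. Pdyn, the opioid precursor prodynorphin, was at 8.35, 9.43 and 9.0 at 500 mg/kg, against 7.27, 7.14, 8.20 and 9.11 in vehicle (1.0 ± 0.52, limma adjusted p = 0.836), and Ppp1r1b, the dopamine-regulated phosphatase inhibitor DARPP-32, differed by 0.08 ± 0.52. Myelin genes had a median of -0.17 over 12 genes, which was -0.41 without vehicle replicate 1 and 0.05 without vehicle replicate 2, and Mbp, myelin basic protein, differed by -0.02 ± 0.09, and by -0.24 ± 0.26 and -0.43 ± 0.22 in its other probe sets. Markers of regions within the forebrain thus differed between arrays of the same group, and their part in the values of single genes was not tested.

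The genes through which D-serine acts showed no change that passed. Of 7 NMDA receptor subunits, 5 were measured, 2 above and 3 below vehicle, with a median of -0.12. The median was 0.00 without vehicle replicate 3 and -0.20 without vehicle replicate 1. Grin1, the subunit that carries the co-agonist site, was at 8.77, 8.81 and 8.95 at 500 mg/kg, against 8.73, 9.03, 9.31 and 8.78 in vehicle (-0.12 ± 0.12, 95% interval -0.36 to 0.13), and its other probe set differed by -0.20 ± 0.19. Grin2a was at 9.68, 9.36 and 9.43 at 500 mg/kg, against 9.59, 9.66, 9.65 and 9.78 in vehicle (-0.18 ± 0.15, 95% interval -0.49 to 0.14), and its other probe sets differed by 0.17 ± 0.15 and -0.24 ± 0.25. Grin2b was at 7.22, 7.44 and 7.25 at 500 mg/kg, against 7.05, 7.24, 7.37 and 7.21 in vehicle (0.09 ± 0.13, 95% interval -0.19 to 0.36), and its other probe set differed by -0.06 ± 0.17. The groups overlapped for each of these, and each interval includes 0.

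**Figure D4:**
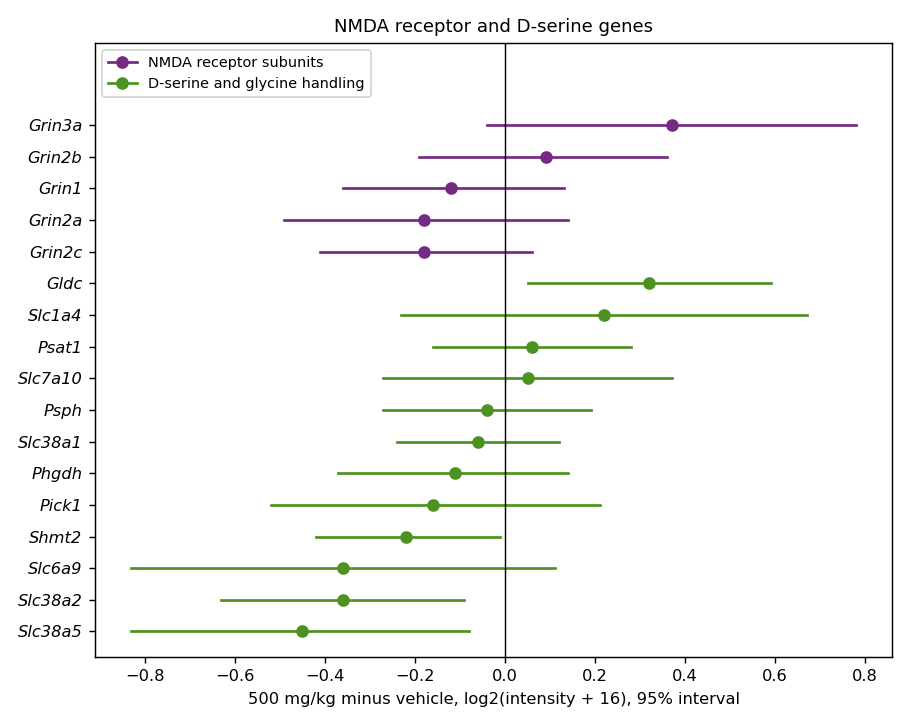
Log2 difference, 500 mg/kg minus vehicle, with its 95% interval for the 5 measured NMDA receptor subunits (purple) and the 12 measured genes of D-serine and glycine handling (green). The interval crosses 0 for all subunits and lies off 0 for Gldc, Shmt2, Slc38a2 and Slc38a5, none of which passed after adjustment. Of all genes, 2.74% were higher and 3.01% lower at an unadjusted p under 0.05.

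D-serine and glycine handling was represented by 12 of 19 listed genes, 4 above and 8 below vehicle, with a median of -0.09. Srr had no probe set that names it alone, and Dao was under the filter, so neither enzyme of D-serine turnover was analysed here. Slc38a2, a neutral amino acid transporter, was at 9.85, 9.28 and 9.71 at 500 mg/kg, against 9.92, 9.92, 9.83 and 10.22 in vehicle (-0.36 ± 0.13, limma adjusted p = 0.738). Slc38a5, which carries glutamine, glycine and serine, was at 6.55, 6.13 and 6.33 at 500 mg/kg, against 7.10, 6.37, 6.84 and 6.84 in vehicle (-0.45 ± 0.18, limma adjusted p = 0.75). Gldc, the glycine decarboxylase of the glycine cleavage system, was at 7.40, 7.67 and 7.65 at 500 mg/kg, against 7.41, 7.11, 7.35 and 7.14 in vehicle (0.32 ± 0.13, limma adjusted p = 0.766). The groups overlapped for all of these.

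Shmt2, the mitochondrial enzyme that interconverts serine and glycine, was at 7.14, 7.50 and 7.50 at 500 mg/kg, against 7.66, 7.65, 7.54 and 7.55 in vehicle (-0.22 ± 0.10). It was the only gene of the list with groups that did not overlap, and 3.21% of all genes lay below vehicle in that way. Slc7a10, which exchanges D-serine, was at 7.31, 7.16 and 7.57 at 500 mg/kg, against 7.36, 7.44, 7.29 and 7.09 in vehicle (0.05 ± 0.15). Phgdh, the first step of L-serine synthesis, differed by -0.11 ± 0.12, the serine transporter Slc1a4 by 0.22 ± 0.22 and the neutral amino acid transporter Slc38a1 by -0.06 ± 0.09.

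AMPA and kainate receptor genes had a median of 0.02 over 12 genes, 7 above and 5 below vehicle. Gria4, an AMPA receptor subunit, was at 8.86, 8.12 and 8.64 at 500 mg/kg, against 8.06, 7.24, 7.17 and 7.80 in vehicle (0.97 ± 0.31, limma adjusted p = 0.641). Its other probe set differed by -0.25 ± 0.20, so the probe sets did not point the same way. Postsynaptic density genes lay between -0.22 and 0.10 over 14 genes with a median of 0.01. Synaptic vesicle genes had a median of 0.02 over 17 genes, in which Svop, a vesicle transporter-like protein, was at 7.63, 7.66 and 7.66 at 500 mg/kg, against 7.04, 7.38, 7.07 and 7.12 in vehicle (0.49 ± 0.15, limma adjusted p = 0.638). Against the same vehicle arrays Svop differed by 1.11, 1.21, 0.77 and 0.40 at 5, 20, 50 and 200 mg/kg.

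Genes that follow neuronal activity were spread widely among vehicle animals at 96 h. Of 20 immediate-early genes 16 were measured, 12 above and 4 below vehicle, with a median of 0.13 and 0 that passed or had groups that did not overlap. Fos was at 7.11, 7.36 and 8.33 at 500 mg/kg, against 7.42, 7.41, 7.83 and 6.42 in vehicle (0.33 ± 0.32). Arc was at 8.62, 8.52 and 8.74 at 500 mg/kg, against 8.82, 8.4, 9.04 and 8.12 in vehicle (0.03 ± 0.22), and Bdnf, a neurotrophin made on activity, differed by 0.01 ± 0.27. The list's median was 0.00 without vehicle replicate 4, the array with the lowest level of the list (-0.36).

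Of 12 glucocorticoid-responsive genes, 10 were above vehicle and 0 passed, with a median of 0.14, or 0.08 without vehicle replicate 4. The list's level was 0.09 to 0.30 on the treated arrays and -0.16 to 0.25 on the vehicle arrays. Sgk1, a kinase induced by corticosterone and also made by oligodendrocytes, was at 9.92, 10.22 and 9.55 at 500 mg/kg, against 9.01, 9.04, 9.11 and 9.06 in vehicle (0.84 ± 0.29, limma adjusted p = 0.707). At 200 mg/kg it was at 9.18 to 10.27, 0.72 above the same vehicle arrays. At 5, 20 and 50 mg/kg it was 0.29, 0.70 and 0.35 above them, so it had no even course over dose. Fkbp5, another target of the receptor, was at 7.78, 7.87 and 7.71 at 500 mg/kg, against 7.58, 7.80, 7.53 and 7.72 in vehicle (0.13 ± 0.16), and its groups overlapped.

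Of 11 interneuron genes, 10 were above vehicle, and their median was 0.14. It was 0.08 without vehicle replicate 2 and 0.23 without vehicle replicate 3. Sst, the neuropeptide somatostatin of dendrite-targeting interneurons, was at 10.31, 10.29 and 10.14 at 500 mg/kg, against 9.65, 9.23, 10.12 and 10.07 in vehicle (0.48 ± 0.16, limma adjusted p = 0.649), with the lowest treated array just above the highest vehicle array. Vip, the peptide of another interneuron class, differed by 0.41 ± 0.20 and Pvalb, parvalbumin, by -0.29 ± 0.35. Among excitatory neuron genes, 10 of 18 were above vehicle with a median of 0.06.

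Metabolic and stress genes lay close to vehicle. Oxidative phosphorylation genes were above vehicle in 18 of 23 with a median of only 0.01, and glycolysis genes in 11 of 14 with a median of 0.06. Gpi, glucose phosphate isomerase, was at 11.04, 11.18 and 11.07 at 500 mg/kg, against 11.01, 10.82, 10.90 and 10.81 in vehicle (0.21 ± 0.07, limma adjusted p = 0.641). Medians were -0.10 for the integrated stress response, -0.03 for the unfolded protein response, 0.01 for heat shock genes, 0.00 for p53 targets, -0.02 for glutathione defence, 0.02 for cholesterol synthesis and -0.01 for ribosomal proteins. In the cholesterol list Srebf2, the transcription factor of that pathway, was at 9.0, 9.30 and 9.31 at 500 mg/kg, against 8.77, 8.88, 8.78 and 8.96 in vehicle (0.35 ± 0.12, limma adjusted p = 0.707). Clock genes had a median of 0.04 over 15 genes and potassium channel genes 0.09 over 23. Of the 36 lists, 22 had a median within 0.1 of 0, and in 17 of these the sign turned when single arrays were left out, with values of -0.27 to 0.14.

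The other genes among the 15 with the smallest p belonged to no list. Above vehicle were Oxnad1 (0.53 ± 0.12), the histone H2B gene Hist3h2ba (0.47 ± 0.11), the stress granule protein gene Ubap2l (0.47 ± 0.12) and Grem1, a secreted antagonist of bone morphogenetic proteins. Grem1 was at 6.51, 6.51 and 6.64 at 500 mg/kg, against 6.13, 5.56, 6.10 and 5.79 in vehicle (0.66 ± 0.16, limma adjusted p = 0.427). Below vehicle were Map7d2, a microtubule-binding protein gene (-0.46 ± 0.10), Olfml2a (-0.45 ± 0.11), the caspase inhibitor gene Xiap (-0.36 ± 0.09) and Prlh, the prolactin-releasing peptide gene (-0.69 ± 0.17). The other probe set of Map7d2 differed by -0.09 and that of Xiap by 0.26.

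The array of Animal 251 bore on values more than on calls. With that array kept, Sptbn1 was again the 1 probe set that passed (-0.58, limma adjusted p = 0.00758), and 1285 probe sets had an unadjusted p under 0.05 in place of 1132. Gfap differed by -0.81 with it and -1.02 without it, Irf1 by -0.32 with it and -0.50 without it, and Grem1 by 0.27 with it and 0.66 without it. Genes of regions turned round: Sst was at 7.77 on the array of Animal 251, and its difference was -0.14 with it and 0.48 without it, and Vip differed by -0.44 with it and 0.41 without it. Cbln1, the cerebellar granule cell synapse organizer, differed by 0.84 with it and -0.67 without it. The medians of the cortical list were -0.28 with it and 0.06 without it, and those of the immediate-early list were -0.21 with it and 0.13 without it.

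**Figure D5:**
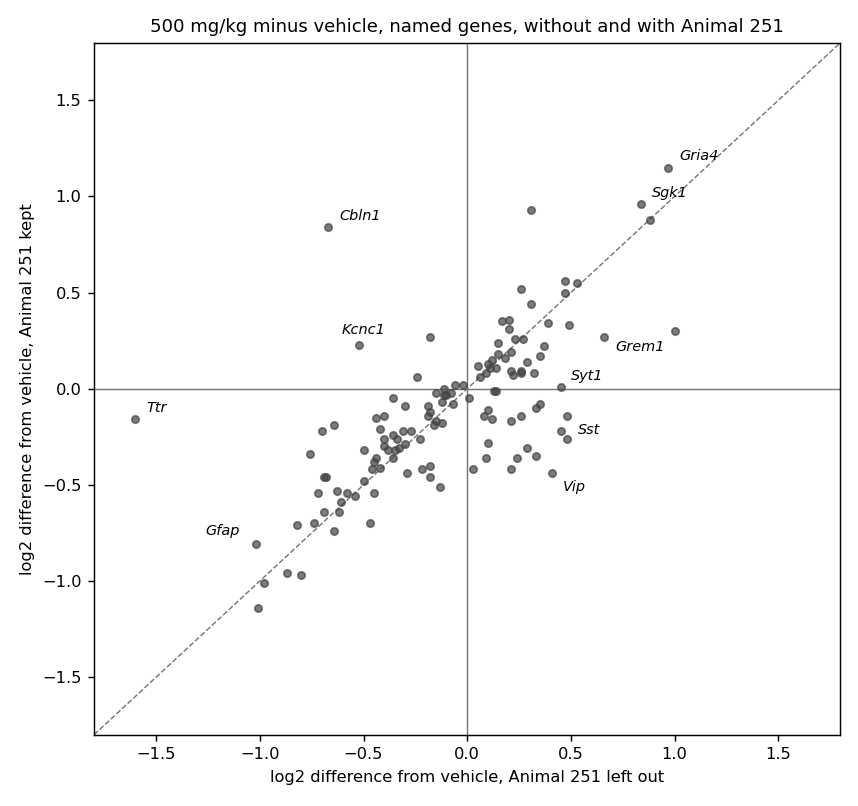
Log2 difference from vehicle at 500 mg/kg of 129 named genes, with Animal 251 left out (horizontal axis) and kept (vertical axis). Points on the dashed diagonal are equal in both. Cbln1, Sst and Vip lie across 0 between both versions, and Gfap stays below vehicle in both.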

How the data were processed

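The deposited intensity values are 1 linear signal per probe set, made by the authors with GCOS, the array maker's software, per the submitters' processing notes. The sources used here do not state its settings. From these, 23 arrays were quantile normalized without Animal 251 and taken as log2(intensity + 16). Of 31099 probe sets, 57 controls and the 40% of the others with the lowest mean were left out. The 6 group means were fitted in limma 3.58.1 (R 4.3.3) with an intensity trend, and Benjamini-Hochberg adjusted p under 0.05 passed. All groups share 1 estimate of the spread. A gene is its probe set with the highest mean. Symbols came from the platform annotation, updated against RefSeq, which named 20832 probe sets with 1 gene, 436 with several and 9831 with none. The limma step was tested on simulated data.

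The arrays, members and 36 gene lists were chosen with earlier results of these data known. Genes are named by rule: the 15 with the smallest p (fewer than 10 genes passed), up to 3 per list with the smallest p, and 19 genes of D-serine handling, activity and tissue makeup whatever their values. Other probe sets of named genes, the Plpp3 and Zrsr2-ps1 probe sets, and Cp, Shmt2, Pvalb, Slc17a6, Mx1 and Mx2 were added after their values were seen. The genes beside Animal 251 only check its tissue. Each array is a separate animal per the labels, so replicate numbers only name arrays. Lists got no test. Alternatives changed the arrays, filter, normalization, pseudocount, trend, moderation, weights, probe sets per gene and, as a covariate, the Gapdh ratio. Batches were not analysed here.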

Additional observations from a re-analysis of the deposited data

Results flagged for a closer look

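Among 68 values tested over the 4 vehicle arrays, 2 had 1 array far from the other 3. Chance gives about 1 in 20, so the count by itself is no more than chance gives. It cannot decide whether a single array stands apart, as the lists are not independent, and the 2 are described only as values. The level of the striatal projection neuron list was 0.93 on vehicle replicate 4 and -0.35 to -0.27 on the others, a distance of 1.24 from their mean. The level of the thalamic neuron list was 1.38 on vehicle replicate 2 and -0.60 to -0.35 on the others, a distance of 1.83. The choroid plexus list, not flagged by this rule, was also highest on vehicle replicate 2, at 1.58 against -0.78 to -0.31 on the others. Vehicle replicates 2 and 4 enter every comparison with vehicle.

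The array of Animal 251, which the comparison leaves out, held a signal of cerebellar genes far above vehicle. Its level minus the vehicle mean was 5.58 for Gabra6, 5.37 for Cbln1 and 5.43 for Car8. It was 6.0 for Pcp2, 4.66 for the hindbrain transcription factor En2, 1.35 for Zic1 and 1.17 for Zic2.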

How the results depend on the processing

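The 1 probe set that passed between 500 mg/kg and vehicle did so again with Animal 251 kept, with no filter or a filter of 60%, with pseudocounts of 1 and 64, with robust moderation and with array weights. The count was 0 with only the 7 arrays, median centring, values as deposited, no intensity trend, 1 probe set per gene (which takes another Sptbn1 probe set) and the Gapdh ratio as a covariate, and 0 to 1 with single arrays left out. Sptbn1 then differed by -0.52 with only the 7 arrays (limma adjusted p = 0.547), by -0.47 with median centring (0.661), by -0.61 as deposited (0.873), by -0.52 without the trend (0.109), by -0.52 with the covariate (0.0605) and by -0.59 to -0.48 with single arrays left out. Probe sets at an unadjusted p under 0.05 numbered 1857 with no filter, which tested more, 600 with 1 probe set per gene, which tested fewer, and 836 to 1435 with single arrays left out. Between 500 and 200 mg/kg 0 passed under every alternative run, single 200 mg/kg arrays left out among them, a choice made after seeing the data. No paired analysis was possible because each array is a separate animal and the replicate numbers carry no pairing.

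Of 2564 values of 130 named genes under alternatives, 2507 kept their direction and their side of the threshold, 0 came to pass and 57 turned direction. With Animal 251 kept, those above vehicle without it were Cacng3 (-0.35), Shank1 (-0.11), Dlgap3 (-0.28), Egr1 (-0.36), Egr2 (-0.08), Npas2 (-0.42), Zmat3 (-0.01), Ldha (-0.14), Kcnj4 (-0.17), Lmo4 (-0.31), Fezf2 (-0.22), Drd1 (-0.26), Sst (-0.14), Vip (-0.44), Pdgfra (-0.16), Grin2b (-0.36), Fos (-0.10), Arc (-0.42), Bdnf (-0.05), Fkbp5 (-0.01) and Ppp1r1b (-0.14). Those below it were Grin2c (0.27), Bag3 (0.06), Kcnc1 (0.23), Cbln1 (0.84), Slc38a1 (0.02) and Mbp (0.02). As deposited, where the median of all probe sets was -0.11, Dlgap3 was -0.01, Hspd1 -0.04, Rpl3 0.00, Grin2b -0.04, Slc7a10 -0.07, Arc -0.07, Bdnf -0.12 and Ppp1r1b -0.01. Bdnf was -0.02 with the covariate. With single arrays left out, Pdgfra was -0.01 to 0.25, Kcnj8 -0.03 to 0.29, Tekt1 -0.23 to 0.13, Drc12 -0.28 to 0.06, Slc7a10 -0.06 to 0.14, Fos -0.03 to 0.58, Arc -0.13 to 0.18, Bdnf -0.12 to 0.21, Ppp1r1b -0.08 to 0.44 and Mbp -0.05 to 0.03. The cause was not tested. The number of arrays limits the precision.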
